A study of Homo sapiens with 4 samples.

Results

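RNAPII-linked DNA loops were examined at 10 genes that encode G-quadruplex (G4) helicases, proteins that unwind or handle G4 DNA or RNA. The genes were BLM, WRN, BRIP1, RTEL1, DDX11, PIF1, DHX36, DHX9, DDX5 and ATRX, and a loop was counted for a gene when at least 1 of its anchors overlapped the gene body or the 10 kb on either side (GENCODE 44, GRCh38). By this rule the genes held 79 of the 66417 loops listed for mock-treated cells and 18 of the 18778 loops listed for PDS-treated cells, or 89 different loops in all, out of 20033 protein-coding genes to which the same rule was applied. No loop was counted for more than 1 of the 10 genes. An anchor was placed at a promoter of a coding gene where it lay within 1 kb of any annotated start site. Such sites can lie inside the gene, so they need not be its main promoter.

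The loops came from POLR2A HiChIP-seq, in which chromatin contacts ligated in nuclei are enriched with an antibody to the largest subunit of RNA polymerase II (RNAPII). HepG2, a human hepatocellular carcinoma cell line, was either mock-treated with sterile water or treated with 20 µM pyridostatin (PDS), a small molecule that binds G4 structures, for 24 h. There were 2 libraries of each condition, but 1 combined loop list per condition, so no spread between replicates can be given and no p-value was computed. Each loop carries a count of paired-end tags (PETs), the sequenced ligation products that join its anchors.

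G4s form where runs of guanines in DNA or RNA stack into a knot-like fold, and unresolved G4s can stall polymerases. Cells keep several helicases that open them, from the RecQ family (BLM, WRN), the iron-sulfur family (BRIP1, RTEL1, DDX11), the Pif1 family (PIF1) and the DEAH and DEAD families (DHX36, DHX9, DDX5), whereas ATRX is a chromatin remodeler of the SNF2 family that acts at repeats able to fold into G4s. The comparison at their own genes asks how the RNAPII-linked contacts of genes that encode G4-resolving proteins fared when a G4 ligand was added.

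A predicted G4 motif was taken as 4 runs of GGG or longer with spacers N of 1 to 7 bases, or the same with CCC, which places the G runs on the opposite strand. Overlapping matches on a strand were counted once. The motifs nearest to the canonical start sites of BLM, PIF1, DHX9, DDX5, BRIP1 and RTEL1 are shown. They lie in the very anchors through which the promoters of these genes were looped in mock-treated cells. The WRN promoter anchor was also looped there and holds 6 predicted motifs, which are not printed. Capitals mark the runs of G, each sequence is written 5′ to 3′ on the G-rich strand, and all positions are GRCh38.
BLM, 641 bp upstream, chr15:90716691-90716705: GGGaGGGcGGGaGGG
PIF1, 455 bp upstream, chr15:64826102-64826122: GGGGGcGGGGGaGGGattGGG
DHX9, 139 bp upstream on the template strand, chr1:182839185-182839208: GGGagatGGGctgagccGGGcGGG
DHX9, 139 bp downstream in an intron, chr1:182839486-182839508: GGGGcggcGGGGtcgcGGGcGGG
DDX5, 246 bp downstream in an intron, chr17:64506015-64506043: GGGtGGGGGGatGGGaGGGcGGGtcaGGG

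In BRIP1 and RTEL1 the nearest motifs are longer, and they are shown inside the RefSeq promoters (GRCh38.p14, sequence of the gene's own strand from 250 bases before the start site to 30 bases from it onwards), where the whole motif is in capitals. The DHX9 promoter is shown beside them with the C-rich strand of its motif in capitals. The BRIP1 motif of 40 bases spans the start site, from 33 bases before it to 6 bases after it. The RTEL1 promoter shown belongs to another start site than the canonical one, and its motif lies 568 bp upstream of the canonical start site. The RefSeq promoter at the canonical RTEL1 start site held 0 motifs.
BRIP1, chr17:61863499-61863778, minus strand: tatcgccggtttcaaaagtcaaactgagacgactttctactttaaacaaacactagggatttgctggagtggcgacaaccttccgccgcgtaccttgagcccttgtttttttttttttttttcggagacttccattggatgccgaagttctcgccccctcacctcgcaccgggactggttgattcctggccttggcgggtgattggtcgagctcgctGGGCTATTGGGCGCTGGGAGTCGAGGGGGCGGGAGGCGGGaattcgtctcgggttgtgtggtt
RTEL1, chr20:63657560-63657839, plus strand: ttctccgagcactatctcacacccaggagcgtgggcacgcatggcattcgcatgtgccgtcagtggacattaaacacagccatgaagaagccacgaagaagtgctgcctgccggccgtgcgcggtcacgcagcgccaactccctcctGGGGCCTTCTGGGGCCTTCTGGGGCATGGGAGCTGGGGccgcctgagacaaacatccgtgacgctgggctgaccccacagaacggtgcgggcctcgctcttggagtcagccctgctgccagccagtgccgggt
DHX9, chr1:182839097-182839376, plus strand: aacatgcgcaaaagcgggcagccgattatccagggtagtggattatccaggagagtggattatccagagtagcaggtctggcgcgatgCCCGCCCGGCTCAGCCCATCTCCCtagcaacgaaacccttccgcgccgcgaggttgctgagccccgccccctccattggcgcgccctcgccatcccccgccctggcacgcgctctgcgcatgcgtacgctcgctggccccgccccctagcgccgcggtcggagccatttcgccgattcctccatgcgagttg

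A motif match is a property of the sequence and not a measured G4. RefSeq promoters were searched in full, from 250 bases before the start site to 50 bases from it onwards. Of these 35116 promoters, 25.0% held a motif. Of the 12 promoters matched to 8 of the G4 helicase genes, 4 did, namely those of BRIP1 and DHX9 and 1 each of RTEL1 and DDX5. WRN and ATRX had no matched promoter in that table.

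At the G4 helicase genes 306 PETs fell in the 79 mock loops and 63 in the 18 PDS loops. The number of PDS loops divided by that of mock loops was 0.228 (95% interval 0.137 to 0.378), and over all listed loops it was 0.283 (0.278 to 0.287). The ratio of PETs was 0.206 (0.157 to 0.270) at these genes and 0.263 (0.261 to 0.265) over all loops. Loops at the G4 helicase genes were fewer after PDS, and both intervals at these genes include the value over all loops. These intervals cover counting error only, sequencing depth is unknown from the lists, and without molecular identifiers PETs may not be independent molecules. PETs enter the lists at least 3 at a time, so an interval that counts each PET singly is too narrow. In bulk cells, fewer cells that carry a contact and fewer contacts per cell cannot be told apart.

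Gene by gene, BRIP1 had 31 mock loops and 7 PDS loops, RTEL1 had 16 and 4, and DDX5 had 10 and 1. PIF1 went from 5 loops to 0, and DHX36 and DHX9 each from 4 to 0. BLM had 4 mock loops and 2 PDS loops, WRN had 4 of each, DDX11 had 1 and 0, and ATRX had none in either list. BRIP1 and RTEL1 together thus carried 47 of the 79 mock loops, and the ratio was 0.229 (0.120 to 0.436) without BRIP1 and 0.219 (0.0986 to 0.485) without both.

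**Figure D1:**
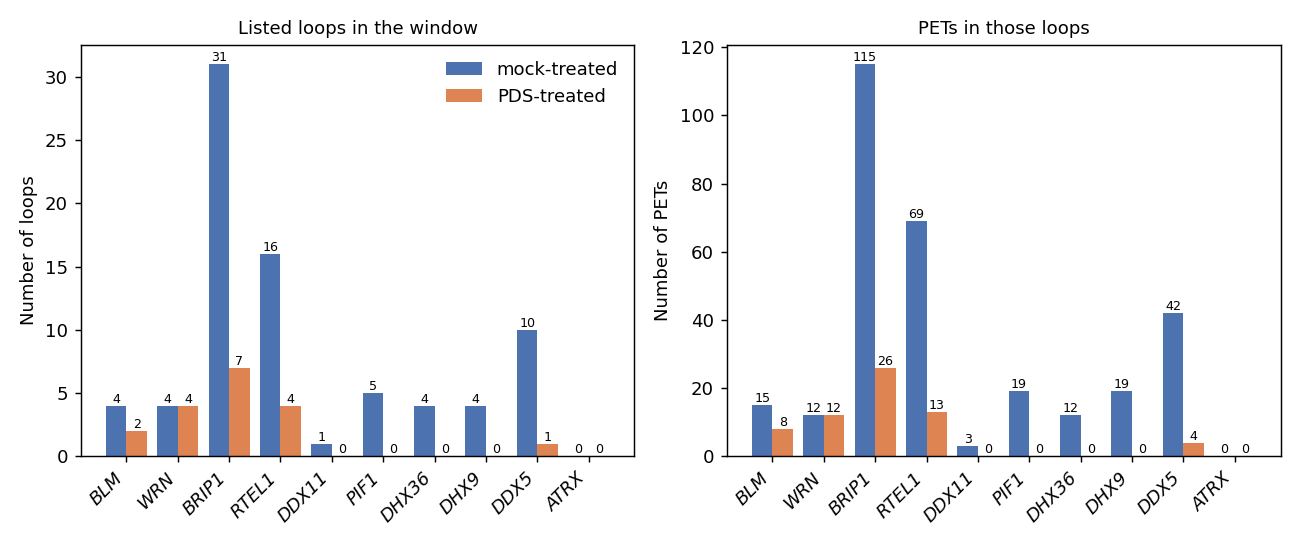
Number of listed loops (left) and of PETs in those loops (right) at each G4 helicase gene, counted over the gene body and 10 kb on either side, in the mock list (blue) and in the PDS list (orange). BRIP1 is highest in both lists, WRN has 4 loops in each list, and PIF1, DHX36, DHX9 and DDX11 have mock loops but no PDS loop.

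A gene was called lower where its PDS list held at most 0.5 times as many loops as its mock list. Of the 9 G4 helicase genes with a mock loop, 8 were called lower, all but WRN, against 88.1% of the 15490 protein-coding genes with a mock loop. No PDS loop was left at 4 of the 9 genes, PIF1, DHX36, DHX9 and DDX11, against 40.3% of those protein-coding genes. Among genes with 4 or 5 mock loops the share with no PDS loop was 38.6%, and it was 3 of 5 here (PIF1, DHX36 and DHX9, but not BLM or WRN). At these numbers of genes, neither share can be told from the background.

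Having a loop at all was also near the background. At least 1 mock loop was listed at 9 of the 10 G4 helicase genes and at 77.3% of protein-coding genes, and at least 1 PDS loop at 5 of 10 and at 48.1%. The median number of mock loops was 4 for the G4 helicase genes and 3 for all protein-coding genes, whose median lengths were 50.3 kb and 27.5 kb. Per 100 kb of window, the medians were 5.69 and 4.61 mock loops.

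The genes ranged widely among themselves. By number of mock loops, BRIP1 ranked 179 of 20033 protein-coding genes, so that 0.958% of genes had as many or more, while RTEL1 ranked 826 (4.77%) and DDX5 ranked 2140 (12.6%). BRIP1 is a long gene of 184 kb, and per 100 kb of window it had 15.2 mock loops, below DDX5 with 33.4, RTEL1 with 27.4 and PIF1 with 16.6. The remaining genes followed with 5.83 for DHX9, 5.56 for DHX36, 3.37 for BLM, 2.46 for WRN and 1.96 for DDX11. By this density, 2.66% of protein-coding genes were at or above DDX5 and 4.59% at or above RTEL1.

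The chromosomes of these genes also differed in loop density, and HepG2 is known to carry extra copies of some chromosomes, 17 and 20 among them. Chromosome 20, with RTEL1, had 89.1 mock loops per Mb and ranked first, and chromosome 17, with BRIP1 and DDX5, had 53.4 and ranked second. All chromosomes together had 21.9 mock loops per Mb, and chromosome X, with ATRX, had 0.481, the lowest value. The PDS/mock ratio of loop numbers was 0.359 on chromosome 20, 0.274 on chromosome 17 and between 0.225 and 0.244 on the autosomes of the other genes. The part of chromosome copy number in the loop counts of single genes was not tested.

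Most loops at these genes were thinly covered. In the mock list 51 of 79 loops, or 64.6% (53.6% to 74.2%), had 3 PETs, the lowest count listed, as had 59.9% of all mock loops. The mean was 3.87 PETs per mock loop and 3.50 per PDS loop at the G4 helicase genes, and 3.83 and 3.57 over all loops. Loops with at least 5 PETs numbered 17 in the mock list and 1 in the PDS list at these genes, a ratio of 0.0588 (0.00997 to 0.347), and the ratio over all such loops was 0.149 (0.142 to 0.157). A loop that is missing from a list can still have PETs, up to 2 of them if the minimum was the only filter, so the loss of a 3-PET loop from the list is not by itself a detectable difference.

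Of the 79 mock loops, 8 were listed again after PDS, which is 10.1% (5.22% to 18.7%). The share over all mock loops was 11.0%. All 8 had identical anchors in both lists, and they lay at BRIP1 (4 loops), RTEL1 (3 loops) and BLM (1 loop). Their PETs summed to 45 in the mock list and 31 in the PDS list, with 5 loops lower, 2 equal and 1 higher. The other 10 PDS loops were absent from the mock list and had at most 4 PETs.

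The share listed again rose with the mock PET count at these genes as it did over all loops. It was 2 of 51 loops with 3 PETs (3.92%), 1 of 11 with 4 PETs (9.09%) and 5 of 17 with at least 5 PETs (29.4%, 13.3% to 53.1%). Over all loops the corresponding shares were 5.97%, 11.7% and 26.8%.

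**Figure D2:**
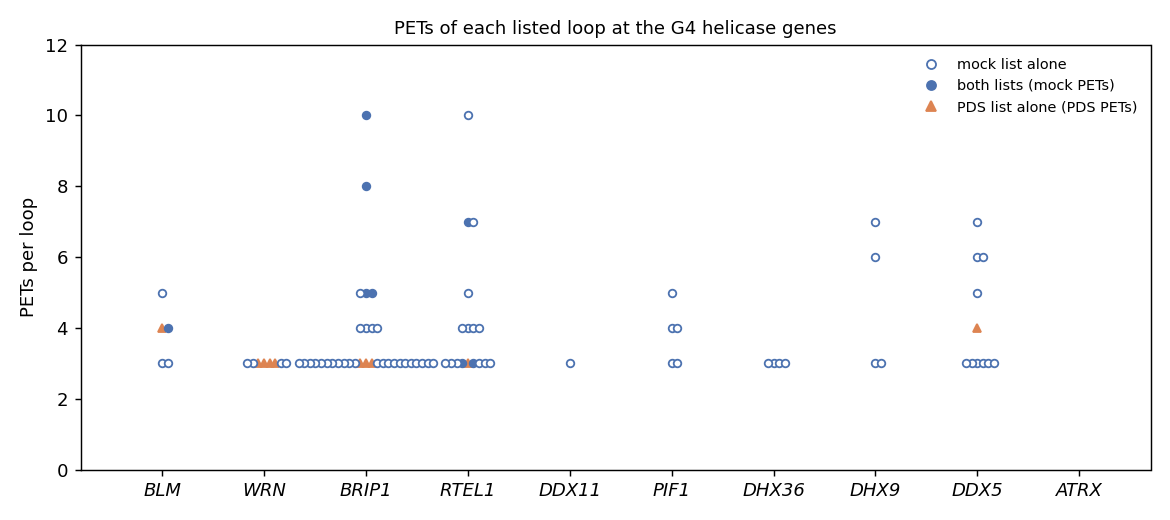
PETs of each loop at the G4 helicase genes. Open circles are loops of the mock list alone, filled circles are loops of both lists drawn at their mock count, and triangles are loops of the PDS list alone at their PDS count. Loops with 3 PETs dominate, both loops with 10 PETs are in the mock list, at BRIP1 and RTEL1, and only that of BRIP1 was listed again.

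Among the RecQ genes, BLM, the helicase lost in Bloom syndrome, spans chr15:90717346-90816166. Its mock loops had 5, 4, 3 and 3 PETs, and its PDS loops had 4 and 4. The shared loop, with 4 PETs in both lists, joined chr15:90734526-90746437 and chr15:90750507-90754504 inside the gene, both at start sites of other BLM transcripts. The anchor at the canonical BLM promoter, which holds the motif printed above and 1 more, had 2 mock loops of 3 PETs each and no PDS loop.

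WRN, the RecQ helicase with an exonuclease domain that is lost in Werner syndrome, lies on chromosome 8. All 8 of its loops, 4 in each list, had 3 PETs, and none was shared. In both lists the anchor at its promoter, which holds 6 predicted motifs and also a promoter of PURG, was joined to a site inside WRN. This site was 26.7 kb away in the mock list and 80.2 kb away in the PDS list. BLM and WRN together had 8 mock loops and 6 PDS loops, a ratio of 0.750 with an interval of 0.272 to 2.07 that includes the ratio over all loops. Their PETs summed to 27 and 20, a ratio of 0.741 (0.419 to 1.31), against 0.263 over all loops. The interval lies above that value but is too narrow, so no difference can be read from it.

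BRIP1 (also FANCJ), an iron-sulfur helicase that binds BRCA1 and works in the Fanconi anemia pathway, spans chr17:61679139-61863559 on the minus strand. Its 31 mock loops had from 3 to 10 PETs with a median of 3, summing to 115 PETs, and its 7 PDS loops had from 3 to 7 PETs, summing to 26. In 20 of the mock loops and 5 of the PDS loops both anchors overlapped the gene, and 16 and 3 of these touched no start site of a coding gene. Most loops of BRIP1 thus joined stretches of its own body.

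The BRIP1 loop with most PETs joined chr17:61731707-61746793 and chr17:61747799-61760349, with 10 mock PETs and 7 PDS PETs. A second loop, between chr17:61797517-61801428 and chr17:61802411-61810406, had 8 and 3 PETs, and another, between chr17:61719892-61727542 and chr17:61731707-61746793, had 5 and 4. These loops lie in introns and exons of the gene, and no predicted G4 motif was found in any of their anchors. The anchor chr17:61731707-61746793 formed 9 mock loops and 2 PDS loops, where the median over the 73492 anchors of the mock list was 1 loop and 0.706% had 9 or more.

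At the BRIP1 promoter, the anchor chr17:61861113-61864909, which holds the 40-base motif, was joined to chr17:61849545-61859434 in the first part of the gene with 5 mock PETs and 3 PDS PETs. This was the only loop at the canonical promoter of a G4 helicase gene that was in both lists. The other mock loop of this promoter, with 3 PETs, led upstream to chr17:61874144-61880002 and was not listed after PDS. A further mock loop of 3 PETs joined the body of BRIP1 to an annotated start site of INTS2, the neighboring gene for an Integrator subunit. Mock loops of 3 PETs led to separate annotated start sites of BCAS3 433 kb and 838 kb away, which need not be its main promoter.

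RTEL1, the regulator of telomere elongation helicase, spans chr20:63657810-63696253 in a dense cluster of genes. Its 16 mock loops had from 3 to 10 PETs, summing to 69, and its 4 PDS loops had 3, 3, 3 and 4 PETs. Every one of its loops had a coding promoter and a predicted motif in at least 1 anchor. In 6 mock loops and 2 PDS loops no anchor touched the gene body itself, so these belong to the 10 kb beside the gene, and some anchors also cover the RTEL1-TNFRSF6B readthrough gene, whose contacts cannot be told from those of RTEL1.

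The strongest loop of the RTEL1 window, with 10 mock PETs, joined the promoters of ARFRP1 and ZGPAT (chr20:63704281-63709231) to those of LIME1, SLC2A4RG and ZGPAT (chr20:63730720-63752140) and was not listed after PDS. The same ARFRP1 and ZGPAT anchor had a mock loop of 7 PETs to chr20:63716268-63722695 that was not listed after PDS, and a PDS loop of 3 PETs to chr20:63533304-63584668 that was not in the mock list. None of these loops touched the body of RTEL1.

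Upstream of RTEL1, a wide anchor of 51.4 kb with the promoters of FNDC11, HELZ2, PTK6 and SRMS and 60 predicted motifs (chr20:63533304-63584668) carried 2 of the 3 shared loops. Its contact with chr20:63641021-63648511 had 7 mock PETs and 3 PDS PETs. Its contact with chr20:63672785-63689817 inside RTEL1 had 3 mock PETs and 4 PDS PETs, the only shared loop of the G4 helicase genes with a higher count after PDS, by 1 PET. The remaining shared loop, between chr20:63663690-63672119 and chr20:63672785-63689817 within RTEL1, had 3 PETs in both lists. The anchor at the canonical start site of RTEL1, which holds the 38-base motif in the promoter printed above and also a promoter of STMN3, had 3 mock loops of 4, 3 and 3 PETs and none after PDS.

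DDX11, an iron-sulfur helicase needed for sister chromatid cohesion, had a single mock loop of 3 PETs from its promoter, whose anchor holds 0 predicted motifs, to a site 7.37 kb away inside the gene, and no PDS loop. In its 2 anchors 61.2% of 31-base sequences have a further copy elsewhere in GRCh38, against 15.9% over all anchors of the G4 helicase genes and from 8.66% to 25.8% for each of the others. Its count is uncertain, and the part of reads that map to several places was not tested. BRIP1, RTEL1 and DDX11 together had 48 mock loops and 11 PDS loops, a ratio of 0.229 (0.120 to 0.436).

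PIF1, the human member of the Pif1 family, which works at replication forks and telomeres, is a short gene at chr15:64815632-64825668 on the minus strand. Its 5 mock loops had 5, 4, 4, 3 and 3 PETs, all with a predicted motif in an anchor, and no loop was listed after PDS. The loops of 4 PETs both started from the promoter anchor chr15:64822781-64829758, which holds the 21-base motif printed above. They led to chr15:64787874-64798326, 33.2 kb away, and to chr15:64833982-64837195, 9.32 kb away. The loop of 5 PETs lay downstream of the gene.

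**Figure D3:**
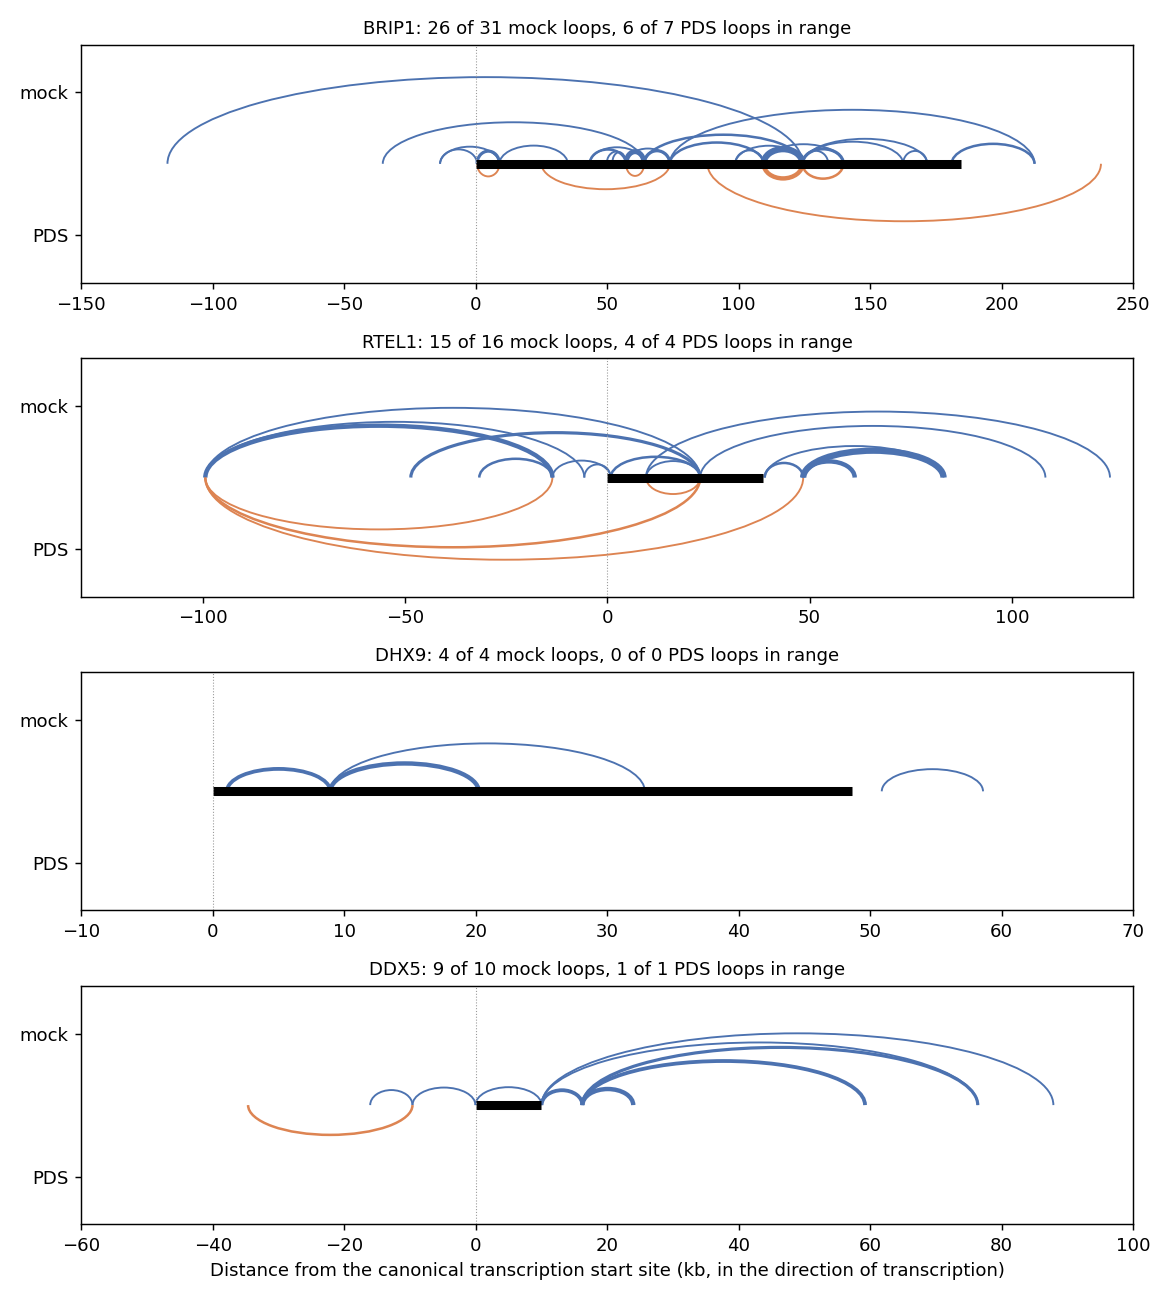
Loops at BRIP1, RTEL1, DHX9 and DDX5 drawn as arcs between anchor midpoints, mock loops above the line (blue) and PDS loops below it (orange), with line width in proportion to PETs and the height of an arc without meaning. The x axis is the distance from the canonical start site in kb in the direction of transcription and the black bar is the gene. The panels hold 26 of 31 mock and 6 of 7 PDS loops of BRIP1, 15 of 16 and 4 of 4 of RTEL1, 4 of 4 and 0 of 0 of DHX9, and 9 of 10 and 1 of 1 of DDX5, and the rest reach beyond the axis. BRIP1 keeps arcs inside its body after PDS, whereas DHX9 has none.

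DHX36, the DEAH helicase best known for resolving DNA and RNA G4s, had 4 mock loops of 3 PETs each and no PDS loop. Of these, 3 touched start sites of other DHX36 transcripts inside the gene, and its canonical start site was in no anchor of either list. At 3 PETs each, the absence of these loops after PDS was not distinguishable from small losses.

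DHX9 (RNA helicase A), which acts in transcription and RNA processing, spans chr1:182839347-182887982. Its mock loops had 7, 6, 3 and 3 PETs, and none was listed after PDS. The loop of 6 PETs joined the promoter anchor chr1:182838542-182842320, which holds both DHX9 motifs printed above, to the next anchor in the gene, chr1:182842933-182853650. The loop of 7 PETs joined that intragenic anchor to chr1:182855078-182864074. The contacts with most PETs thus lay in the first part of the gene.

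DDX5 (p68), a DEAD-box RNA helicase and transcriptional coregulator, is a gene of 9.95 kb at chr17:64498254-64508199 on the minus strand. Its mock loops had 7, 6, 6 and 5 PETs, and the other 6 had 3 each, while the only PDS loop had 4 PETs and was not in the mock list. The loops with 5 to 7 PETs all shared the anchor chr17:64487825-64492299, which holds an annotated start site of POLG2. This gene of the accessory subunit of the mitochondrial DNA polymerase lies next to the end of DDX5. Start sites of POLG2 were also in the anchors chr17:64479522-64485139 and chr17:64493724-64498817, so the shared anchor need not be at its main promoter. The anchor at the DDX5 promoter itself (chr17:64504636-64508016), which holds the 29-base motif printed above and a promoter of CEP95, had 3 loops of 3 PETs each in the mock list and none in the PDS list. The PDS loop lay beside the gene, between chr17:64511142-64520670 at CEP95 and chr17:64538310-64543511.

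DHX36, DHX9 and DDX5, whose products also work on RNA, together had 18 mock loops, which held 73 PETs, and 1 PDS loop, which held 4. The ratio of loop numbers was 0.0556, and its interval of 0.00944 to 0.327 includes the ratio over all loops. Their ratio of PETs was 0.0548 (0.0208 to 0.144), against 0.263 over all loops. The interval lies below that value but, like the others of PETs, is too narrow, so no difference can be read from it. Loops that touched the body of none of these genes held 21 mock PETs and all 4 PDS PETs at DDX5. At DHX36 such a loop held 3 mock PETs. Of these 18 mock loops 0 were listed again, which allows a share of up to 16.7% (3 counts of 18), above the 11.0% of all mock loops.

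**Figure D4:**
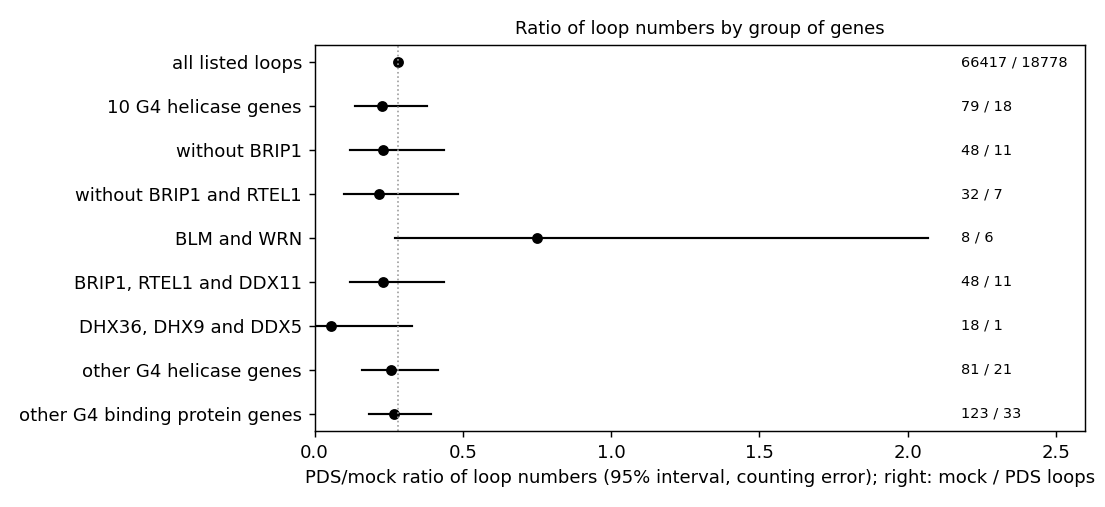
PDS/mock ratio of loop numbers (points) with 95% intervals that cover counting error only (lines), for all listed loops, for the G4 helicase genes, for their families and for the 2 other lists of G4-related genes, with the numbers of mock and PDS loops at the right. The dotted line is the ratio over all loops, 0.283, and every interval includes it.

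ATRX, the remodeler that deposits histone variants at telomeres and G-rich repeats, spans 281 kb of chromosome X and had no loop in either list, although its window was the longest of the 10. As on the rest of chromosome X, where 75 mock loops and 10 PDS loops were listed in all, the lists give no measure of the change at this gene.

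Promoters of the G4 helicase genes, taken as 1 kb on either side of any annotated start site, were in an anchor of 31 mock loops and 8 PDS loops, of which 4 were shared, and these held 111 and 27 PETs. Taking the canonical start site alone left 15 mock loops at 8 genes and 2 PDS loops at WRN and BRIP1. Both anchors overlapped the body of the same gene for 34 mock loops and 10 PDS loops, of which 6 were shared. Some of these anchors reached beyond the gene. The 13 mock loops and 4 PDS loops that touched no gene body were at RTEL1, DDX5, PIF1, DHX36 and WRN.

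By distance between anchor midpoints, 38 mock loops and 9 PDS loops spanned up to 20 kb, which is 48.1% (37.4% to 58.9%) of mock loops here and 54.8% of all mock loops. Loops over 200 kb numbered 7 in the mock list, 5 of them at BRIP1, and 0 in the PDS list. The ratio of these long loops had an upper limit of 0.549, and over all loops beyond 200 kb it was 0.299, so their absence from the PDS list was not distinguishable from the change over all loops.

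A predicted G4 motif was found in at least 1 anchor of 45 of the 79 mock loops, or 57.0% (46.0% to 67.3%), and of 10 of the 18 PDS loops, or 55.6% (33.7% to 75.4%). Over all loops the shares were 75.2% and 75.5%. BRIP1, with the most loops, had a motif in 12 of 31 mock loops, whereas RTEL1 had one in 16 of 16, PIF1 in 5 of 5 and DDX5 in 5 of 10. BLM had one in 3 of 4, DHX9 in 2 of 4, WRN and DHX36 in 1 of 4 each and DDX11 in 0 of 1. Without BRIP1 the share was 68.8% (54.7% to 80.1%), and without both BRIP1 and RTEL1 it was 53.1% (36.4% to 69.1%). The loops of a gene share anchors, the anchors ranged from 1.28 kb to 51.4 kb in width, and the part of width in these shares was not tested.

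The intervals of loops with and without a motif overlapped. With a motif there were 45 mock loops and 10 PDS loops, a ratio of 0.222 (0.113 to 0.435), and without one 34 and 8, a ratio of 0.235 (0.111 to 0.499). Of the mock loops with a motif 8.89% (3.51% to 20.7%) were listed again, and of those without 11.8% (4.67% to 26.6%). Over all loops the ratios were 0.284 and 0.280, and the shares listed again were 11.5% and 9.50%.

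Other genes with a role at G4s were counted in the same way. A list of 18 further G4 helicase genes had 81 mock loops and 21 PDS loops, a ratio of 0.259 (0.161 to 0.417). Of its 15 genes with a mock loop 12 were called lower, against 88.1% of all protein-coding genes with a mock loop. Its genes with most mock loops were RECQL5, a RecQ helicase, with 21 mock loops and 4 PDS loops, ERCC3, a helicase of the general transcription factor TFIIH, with 11 and 3, and DDX1, a DEAD-box helicase, with 8 and 2. FANCM, with 1 and 2 loops, was the only gene of that list with more loops after PDS.

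Genes of 21 G4 binding proteins that are not helicases had 123 mock loops and 33 PDS loops, a ratio of 0.268 (0.183 to 0.393). Of the 19 with a mock loop 17 were called lower, against the same 88.1% of all protein-coding genes with a mock loop. TOP1, DNA topoisomerase I, had 30 mock loops and 17 PDS loops, NCL, the gene of nucleolin, had 13 and 3, and DNMT1, the maintenance DNA methyltransferase, had 10 and 1.

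The labelled cell type was checked with the same window. All 9 hepatocyte marker genes had mock loops, from 4 to 39 each, as had 3 of 4 leukocyte, 0 of 2 erythroid and 1 of 4 fibroblast marker genes. Over all protein-coding genes the share with a mock loop was 77.3%, so having a loop is not by itself a mark of cell type. Loops at a gene are not expression, and leukocyte markers had up to 7 mock loops.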

How the data were processed

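Reads from 4 POLR2A HiChIP-seq libraries of HepG2 cells were processed by the authors with HiC-Pro 3.1.0 on GRCh38, with MboI fragments and removal of duplicates. For each condition, Mock and PDS, they deposited 1 loop list, giving the count of PETs of each loop in whole numbers, unscaled, from 3 upwards. How anchors were set and the 2 replicates combined is not given in the sources used here. Lists were assigned by the condition in their labels and read whole. The listed PETs sum to 254647 (mock) and 67001 (PDS), which are not library depths.

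Genes came from GENCODE 44. Loops were called shared where both anchors overlapped by at least 1 bp. Ratios have 95% intervals based on Wilson limits for the fraction of loops or PETs that were PDS, and shares have Wilson intervals, except that a share of 0 has the limit of 3 counts. The matching and motif searches were tested on simulated data. The genes named were the 10 G4 helicase genes, coding genes with promoters in their anchors and the 3 genes with most mock loops of each further list (FANCM was added after its values were seen, and 1 gene is not reported here). The members and lists were chosen with earlier results of these data known. Alternatives were the window, PET minimum, overlap rule, promoter and motif definitions. Scripts used scipy 1.17.1, pysam 0.24.0, pandas 2.3.3, numpy 2.4.6 and Python 3.11.15.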

Additional observations from a re-analysis of the deposited data

How the results depend on the processing

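The ratio of loop numbers at the G4 helicase genes stayed below 1 under all 7 alternatives run for it. Over all loops it was 0.283, so a value below 1 does not set these genes apart. With at least 5 PETs per loop the ratio was 0.0588 at these genes and 0.149 over all loops. The ratio of PETs was 0.0642 (0.0304 to 0.136) with at least 5 PETs, below the 0.161 of all loops at that minimum and resting on 1 PDS loop. The main ratio of PETs was 0.782 (0.597 to 1.03) when divided by the ratio of the list totals. That division sets the change over all loops to 1, a value that the interval includes. The share of mock loops listed again was 26.6% with anchors extended by 5 kb and 29.4% among loops with at least 5 mock PETs. With the canonical start site alone, promoter loops numbered 15 in the mock list and 2 in the PDS list. The share of mock loops with a motif was 68.4% with spacers of up to 12 bases and 26.6% with a motif in both anchors. The shares over all loops were not counted with extended anchors or at these motif settings. These values therefore cannot be set against the shares over all loops given above. With at least 4 PETs, a setting chosen after seeing the data, 5 of 6 genes with a mock loop were called lower. The share of all protein-coding genes called lower at that minimum was not counted, so this count has no background beside it. Over all loops the ratio of loop numbers at that minimum was 0.204. The other 14 of 24 alternatives moved their value by less than its interval, or a count by less than 1.5 times. Small PDS loop numbers limit all of these values.

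No paired analysis was possible because the 2 replicates of each condition were combined in 1 list before deposit, and for the same reason the alternatives that leave out a replicate were not run.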
